A study of Mus musculus with 32 samples.

Results

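Epiblast-like cells (EpiLCs) after 36 h of differentiation were compared with mouse embryonic stem cells (ESCs) of clone BP14A kept in 2i+LIF. The members were the 4 arrays that the labels give to these groups, 2 of each, out of 32 arrays in 16 groups. The values were read over the 14878 autosomal genes tested, out of 18032 genes on the arrays. Each array held cDNA of about 20000 cells, amplified by a global PCR. The EpiLCs came from the parental clone, BVSCR26rtTA: male cells on a C57BL/6 and 129 background with the reporters Blimp1-mVenus and stella-ECFP and the transactivator gene Rosa26-rtTA. The BP14A ESCs are labelled with the same sex, background, reporters and transactivator. They also carry 3 piggyBac transgenes under tetO control, for Avi-tagged Blimp1 (gene Prdm1), 3xFLAG-tagged Prdm14 and V5-tagged Tfap2c, and no label gives them doxycycline, the drug that switches such transgenes on. ESCs of the parental clone were not among the arrays, so clone, transgenes and 36 h of differentiation cannot be told apart in any difference reported here. The medium 2i+LIF holds inhibitors of MEK and GSK3 and the cytokine LIF, and the growth protocol has the cells adapted to culture without feeders.

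ESCs in 2i+LIF are held near the state of the epiblast just before implantation, called naive pluripotency. MEK inhibition blocks the ERK branch of FGF signalling, GSK3 inhibition raises β-catenin and with it WNT target genes, and LIF acts through its receptor on the transcription factor STAT3. When these are withdrawn and activin A and basic FGF are given, ESCs turn into EpiLCs, which resemble the epiblast after implantation. They shut down the naive transcription factors, keep Oct4 (gene Pou5f1) and switch on the de novo DNA methyltransferases. EpiLCs are the cells from which primordial germ cell-like cells are induced, and ESCs are the cells from which EpiLCs are made.

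Array medians were 4.73 and 4.76 in EpiLCs and 4.73 and 4.74 in ESCs on the log2 scale. Across genes the EpiLC arrays correlated with each other at r = 0.976 and the ESC arrays at 0.983, and pairs from different groups at 0.913 to 0.922. For Gapdh, the log2 level of the 5′ probe set minus that of the 3′ one, lower where cDNA is short at its 5′ end, was -3.03 and -0.42 on the EpiLC arrays and -2.82 and -0.76 on the ESC arrays, so the lower value fell on replicate 1 in both groups. Both groups are labelled male, but Eif2s3y, a gene of the Y chromosome, read 9.61 and 9.26 in the EpiLCs and 5.48 and 4.83 in the BP14A ESCs, against 10.05 and 10.25 in the earlier male ESCs. Levels are log2 values after quantile normalization, given as replicate 1 and then replicate 2. Differences are log2 EpiLC minus log2 ESC with the standard error (SE) and the Benjamini-Hochberg adjusted p of limma. A gene is said to have risen or fallen at an adjusted p under 0.05 and a difference of at least 2-fold. A level under 4.05 is called dim, and a difference that rests on a dim group is only roughly measured. Each p reflects how far arrays scatter within groups, over all 16 groups and 32 arrays. Biological duplicates are stated, but no label names separate cultures, so that scatter may be technical. In bulk cells, fewer cells of a kind and less RNA per cell cannot be told apart.

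Of 14878 genes, 1040 rose (6.99%) and 1109 fell (7.45%) from ESCs to EpiLCs. The change reached 16-fold in 40 genes that rose and 90 that fell. The ranks that follow pass over genes with only a provisional name, such as Gm9564, which rose by 6.25. Car4, a carbonic anhydrase on the cell surface, had the largest rise, with 11.93 and 12.07 in EpiLCs against 2.63 and 3.09 in ESCs (log2 difference 9.14, SE 0.35, adjusted p = 9.58e-13). Next came the growth factor gene Fgf5 at 7.35, the POU factor gene Pou3f1 at 6.95, the matrix proteoglycan gene Dcn at 6.39, the myosin light chain gene Myl9 at 6.15 and the DNA methyltransferase gene Dnmt3a at 6.03. Jam2, a junctional adhesion molecule, had the largest fall, with 3.68 and 4.03 in EpiLCs against 11.36 and 11.38 in ESCs (log2 difference -7.52, SE 0.27, adjusted p = 5.54e-13). It was followed by the transcription factor genes Klf4 at -7.33, Tfcp2l1 at -7.19 and Prdm14 at -7.06, the innate immunity gene Pglyrp1 at -6.43 and Lrrc34 at -6.35. For 257 genes that rose the ESC mean was dim, and for 217 that fell the EpiLC mean was. The arrays of the groups did not overlap for 1039 of the genes that rose and for each of the 1109 that fell. With 2 arrays a group the call itself favours such separation, so these counts add no support of their own. The share among genes not called is not given here. The median difference on single autosomes lay between -0.040 (chromosome 16) and 0.092 (chromosome 2).

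**Figure D1:**
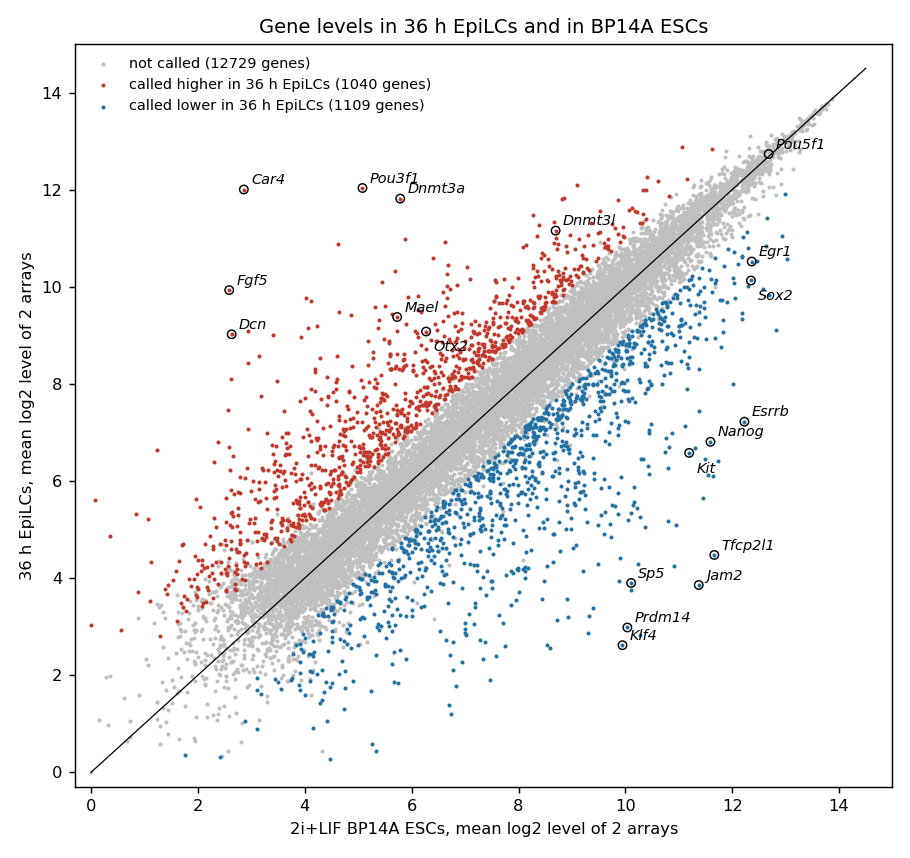
Mean log2 level of 2 arrays in 2i+LIF BP14A ESCs (horizontal axis) against 36 h EpiLCs (vertical axis) for 14878 autosomal genes; red genes were called higher in EpiLCs, blue genes lower, grey genes neither, and the line marks equal levels. Car4, Fgf5 and Pou3f1 lie far above the line, Klf4, Prdm14, Jam2 and Tfcp2l1 far below it, and Pou5f1 on it.

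The naive pluripotency genes had fallen almost as a whole. Of 18 tested, 15 fell and 0 rose by limma (also 0 higher at an unadjusted p under 0.05), against 7.45% of all genes that fell, and their median difference was -4.69 against 0.04 for all genes tested. Klf4, a Krüppel-like factor downstream of LIF, read 3.92 and 1.31 in EpiLCs and 9.79 and 10.10 in ESCs (log2 difference -7.33, SE 0.71, adjusted p = 1.81e-07). Both EpiLC arrays were dim for it and stood apart from each other by more than the ESC arrays did. Tfcp2l1, a CP2-family factor of the naive network, read 4.64 and 4.31 against 11.64 and 11.69 (log2 difference -7.19, SE 0.28, adjusted p = 1.46e-12). Klf2, another Krüppel-like factor, read 6.14 and 6.11 against 11.75 and 11.36 (log2 difference -5.43, SE 0.30, adjusted p = 1.09e-10). All 3 factors were thus separated by more than 5 log2 units on every pair of arrays.

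Other factors of this network kept a readable level. Esrrb, an orphan nuclear receptor, read 6.91 and 7.53 in EpiLCs against 12.13 and 12.33 in ESCs (log2 difference -5.01, SE 0.53, adjusted p = 5.88e-07). Nanog, a homeobox factor, read 6.14 and 7.47 against 11.29 and 11.89 (log2 difference -4.79, SE 0.45, adjusted p = 1.16e-07), and its EpiLC arrays differed by more than its ESC arrays. Zfp42, known as Rex1, read 9.37 and 9.49 against 11.30 and 11.31 (log2 difference -1.88, SE 0.21, adjusted p = 1.22e-06), the smallest fall among the 15. Both Nanog and Esrrb were well above the dim range in EpiLCs, where Klf4 was dim on both arrays. The T-box factor gene Tbx3 fell by 4.59, the nuclear receptor gene Nr5a2 by 5.86, the AKT co-activator gene Tcl1 by 5.81 and Klf5 by 3.09. Of the 3 that passed no call, Fgf4, the main FGF ligand of ESCs, read 10.96 and 10.90 against 11.39 and 11.34 (log2 difference -0.44, SE 0.24, adjusted p = 0.217). Gbx2, a homeobox gene, differed by -0.63 (adjusted p = 0.197) and Dppa5a, for an RNA-binding protein, by -0.18 (adjusted p = 0.483).

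Of 12 core pluripotency genes 2 rose and 1 fell, against 6.99% and 7.45% of all genes, with a median of 0.18. Pou5f1, which encodes Oct4, read 12.66 and 12.80 in EpiLCs and 12.71 and 12.66 in ESCs, and the arrays of the groups overlapped (log2 difference 0.05, SE 0.14, adjusted p = 0.857). Sox2, its partner on DNA, read 10.13 and 10.12 against 12.39 and 12.31 and fell (log2 difference -2.22, SE 0.20, adjusted p = 5.09e-08). Utf1, a chromatin-bound factor of pluripotent cells, rose from 10.48 and 10.32 to 12.17 and 12.34 (log2 difference 1.86, SE 0.18, adjusted p = 1.84e-07), and Dppa2, a DNA-binding protein of pluripotent cells, rose by 1.62 (SE 0.27). Without EpiLC replicate 1 the number of core genes that rose was 4 instead of 2.

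**Figure D2:**
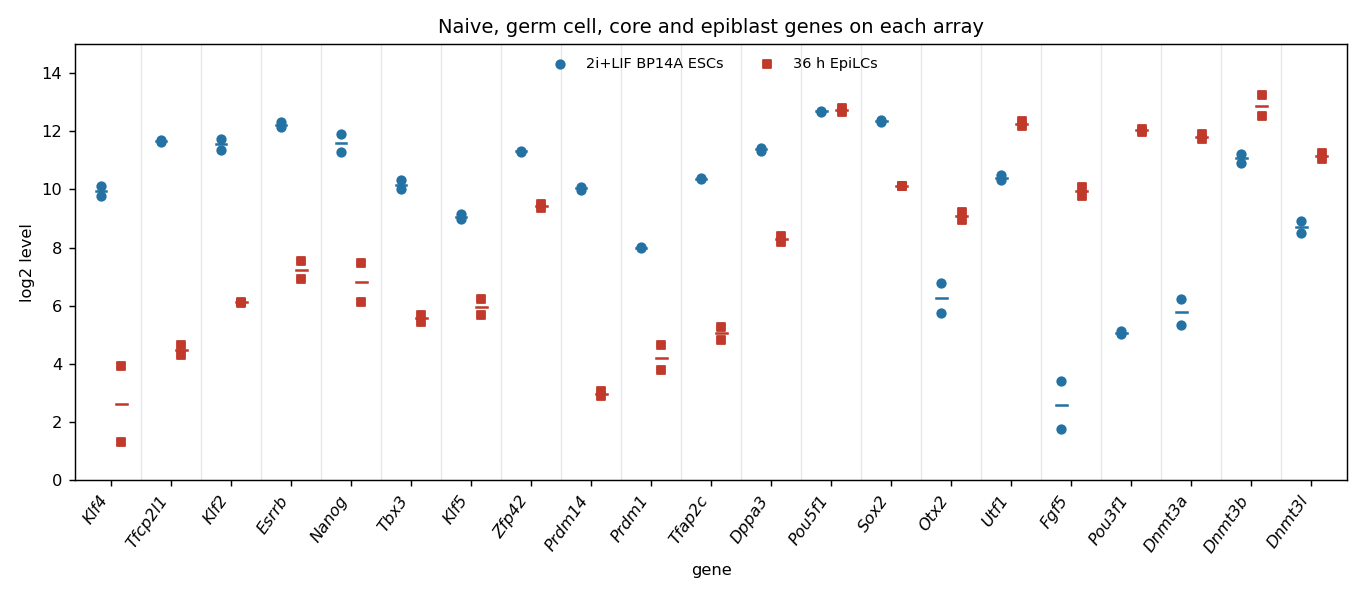
Log2 level (vertical axis) of 21 naive, germ cell, core and epiblast genes on each of the 2 ESC arrays (blue circles) and 2 EpiLC arrays (red squares), with bars at the group means. From Klf4 to Dppa3 the ESC arrays are higher, at Pou5f1 the groups overlap, and from Otx2 to Dnmt3l the EpiLC arrays are higher; Sox2 is lower in EpiLCs.

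Genes of the formative and primed epiblast rose: 14 of 20 tested, against 6.99% of all genes, with a median of 2.20. By limma 0 fell, and 1 (Cdh2, below) was lower at an adjusted p under 0.05 but under 2-fold. Fgf5, the usual marker of the epiblast after implantation, read 10.10 and 9.76 in EpiLCs against 3.42 and 1.75 in ESCs (log2 difference 7.35, SE 0.41, adjusted p = 1.16e-10). Pou3f1, also called Oct6, read 12.09 and 11.98 against 5.14 and 5.02 (log2 difference 6.95, SE 0.39, adjusted p = 1.16e-10). Otx2, a homeobox factor that redirects Oct4 to new enhancers in EpiLCs, read 9.21 and 8.94 against 5.75 and 6.80 (log2 difference 2.81, SE 0.39, adjusted p = 1.72e-05). The Fgf5 ESC arrays were both dim and the Otx2 ESC arrays were not, and for each of the 3 genes the lowest EpiLC array lay above the highest ESC array by more than 2 log2 units.

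The epiblast of C57BL/6 embryos at embryonic day 5.5, sex unknown per the labels, was measured on the earlier arrays. There Fgf5 read 10.11 and 10.19 and Pou3f1 12.01 and 12.01, each within 0.5 of the 36 h EpiLC arrays. Otx2 read 10.18 and 10.69 in that epiblast, above both EpiLC arrays, and no test was made of this difference. Among the rest of the list, Sall2, a spalt-like zinc finger gene, rose by 3.92 (SE 0.47), Sox4 by 3.36 (SE 0.59) and the epithelial factor gene Grhl2 by 3.37 (SE 0.21). Sox4 rested on the brightest probe set: with the mean of all its probe sets the rise was 0.81, under 2-fold. Cdh2, which encodes N-cadherin and is used as a marker of later primed cells, read 6.14 and 5.95 in EpiLCs and 6.95 and 6.93 in ESCs, a difference of -0.89 that did not reach 2-fold. That value is from its brightest probe set, and its other probe set differed by -1.42 (SE 0.39). Among the processing alternatives, the number of list genes that fell reached 1 instead of 0.

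The DNA methyltransferases that set new methylation were among the genes that moved. Dnmt3a read 11.74 and 11.89 in EpiLCs against 6.22 and 5.35 in ESCs (log2 difference 6.03, SE 0.27, adjusted p = 1.04e-11). Dnmt3l, a cofactor without catalytic activity of its own, read 11.06 and 11.25 against 8.90 and 8.49 (log2 difference 2.46, SE 0.26, adjusted p = 5.95e-07). Dnmt3b read 12.53 and 13.23 against 10.91 and 11.21 (log2 difference 1.82, SE 0.61, adjusted p = 0.0344). Those values are from its brightest probe set, and its other probe set differed by 3.10 (SE 0.49). Both EpiLC arrays were above both ESC arrays for Dnmt3b, but the call was lost without any single one of the 4 arrays, with adjusted p from 0.0539 (without EpiLC replicate 1) to 0.2 (without EpiLC replicate 2). The maintenance genes did not pass: Dnmt1 read 11.23 and 11.19 against 11.42 and 11.60 (adjusted p = 0.0999), and the EpiLC arrays of Uhrf1, at 9.63 and 10.73, differed from each other by more than 1 log2 unit (adjusted p = 0.434). Nor did the hydroxylase genes Tet1 (-0.67, SE 0.36, adjusted p = 0.201) and Tet2 (-0.22, SE 0.20, adjusted p = 0.488). In the whole DNA methylation list 4 of 16 rose and 2 fell, against 6.99% and 7.45% of all genes. The 2 that fell were Gadd45b (-2.41) and Zfp57 (-1.91), which protects imprints. Of 19 genes for histone modification 1 rose and 2 fell, beside the same shares of all genes. The H3K9 demethylase genes Kdm3a and Kdm3b fell by 2.12 and 1.39. Ehmt1, for an H3K9 methyltransferase, rose by 1.08, a size that fell below 2-fold without EpiLC replicate 2 (0.99) and without ESC replicate 1 (0.93).

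Genes of the LIF and STAT3 pathway were often lower in EpiLCs. Of 17 tested, 8 fell, against 7.45% of all genes, and 0 rose by limma (also 0 higher at an unadjusted p under 0.05), and the median was -1.22. Socs3, the feedback inhibitor that STAT3 induces, read 5.16 and 5.71 in EpiLCs against 10.24 and 10.19 in ESCs (log2 difference -4.78, SE 0.44, adjusted p = 1.1e-07). Bcl3, a nuclear IκB protein, fell by 4.84 (SE 0.33). The receptor was lower too: Lifr read 7.09 and 7.01 against 10.61 and 10.28 (log2 difference -3.40, SE 0.19, adjusted p = 1.16e-10) and Il6st, which encodes its partner gp130, 7.02 and 6.95 against 10.51 and 10.39 (log2 difference -3.47, SE 0.18, adjusted p = 7.25e-11). With the mean of its probe sets Il6st differed by -1.0 with an adjusted p of 0.0667 and was not called. Stat3 itself fell by 2.13 (SE 0.17). Klf4 and Tfcp2l1 belong to this list as well as to the naive one.

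WNT target genes fell in 6 of 13 cases, against 7.45% of all genes, and their median was -2.08. By limma 0 rose, and 1 was higher at an adjusted p under 0.05 but under 2-fold. Sp5, a zinc finger gene directly induced by β-catenin, read 3.92 and 3.88 in EpiLCs against 10.50 and 9.72 in ESCs (log2 difference -6.21, SE 0.48, adjusted p = 9.12e-09). Axin2, the negative feedback scaffold of the pathway, read 5.78 and 5.23 against 10.27 and 9.23 (log2 difference -4.25, SE 0.51, adjusted p = 2.75e-06). Notum, a secreted enzyme that inactivates WNT proteins, read 6.65 and 6.56 against 10.73 and 10.76 and had the largest moderated t of the genes that fell (log2 difference -4.15, SE 0.12, adjusted p = 5.73e-14). Cdx1, a caudal homeobox gene, fell by 3.73 (SE 0.26). Lef1, a TCF family member induced in the primed epiblast, read 6.05 and 7.90 against 6.16 and 5.64, and its difference rested on EpiLC replicate 2: it was 1.08 with both arrays (adjusted p = 0.291) and 0.15 without that array.

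The 250 bases before the start of Sp5 are shown because TCF and LEF factors are known to bind CTTTGAT and CTTTGAA, and Sp5 had the largest fall among the WNT targets. The sequence is RefSeq's (build GRCm38.p6), chr2:70474673-70474922 (plus strand), written 5′ to 3′ along the gene, with the CTTTGAT match in capitals.
Sp5 promoter: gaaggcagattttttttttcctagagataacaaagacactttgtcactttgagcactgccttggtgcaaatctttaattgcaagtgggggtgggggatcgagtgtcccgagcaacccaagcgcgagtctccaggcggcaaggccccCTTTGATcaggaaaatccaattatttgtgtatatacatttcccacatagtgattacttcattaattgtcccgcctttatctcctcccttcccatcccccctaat
The match begins at position -104 from the start. Of 11 WNT targets with a promoter in the table, CTTTGAT on either strand was found for Sp5 and Tnfrsf19, both of which fell (Tnfrsf19 only with its brightest probe set; with the mean of its probe sets it differed by -0.67), and CTTTGAA for Dkk1, which fell, and for T, which was not among the genes tested. Over all 32851 promoters of this length, 3.21% held CTTTGAT and 4.46% held CTTTGAA.

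Genes of the FGF and ERK branch moved both ways. Of 17 ERK targets and feedback genes, 7 rose and 4 fell, against 6.99% and 7.45% of all genes, with a median of 0.46. Dusp4, a phosphatase for ERK, read 9.11 and 8.72 in EpiLCs against 5.04 and 5.94 in ESCs (log2 difference 3.43, SE 0.31, adjusted p = 6.17e-08). Etv4, an ETS factor induced by FGF, read 8.20 and 8.47 against 5.68 and 5.98 (log2 difference 2.50, SE 0.32, adjusted p = 5.94e-06). The 7 that rose were 4 without EpiLC replicate 2 and 4 without ESC replicate 2, and Dusp6 and Spry4 were called only marginally. Dusp6 read 8.96 and 9.43 against 6.96 and 6.66 (adjusted p = 0.0478), and its call was lost without any single one of the 4 arrays. The call for Spry4 was lost without each of them but EpiLC replicate 1. Spry4 differed by 1.33 on its brightest probe set. Its other probe sets differed by 2.17 (SE 0.97), 2.30 (SE 0.42) and 0.33 (SE 0.88).

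The 4 that fell were the immediate-early genes Egr1, Fos and Junb and the feedback gene Spry2. Egr1, a zinc finger gene induced within minutes of ERK activation, was bright in both groups, at 10.65 and 10.39 in EpiLCs and 12.24 and 12.49 in ESCs, and fell (log2 difference -1.85, SE 0.29, adjusted p = 7.18e-05). Fos read 8.22 and 6.05 against 11.15 and 11.09 (log2 difference -3.99, SE 0.93, adjusted p = 0.00303), with EpiLC arrays more than 2 log2 units apart; without EpiLC replicate 2 the difference was -2.90 with an adjusted p of 0.0689. Junb read 6.25 and 6.68 against 8.91 and 9.34 (log2 difference -2.66, SE 0.35, adjusted p = 9.08e-06). Outside the list, Jun at -2.38 and Egr2 at -2.95 fell too. Spry2 read 8.94 and 9.25 against 10.36 and 10.30 (log2 difference -1.23, SE 0.32, adjusted p = 0.00648), a call lost without EpiLC replicate 1 (adjusted p = 0.0679) and with the mean of its probe sets (-0.24, adjusted p = 0.633). Immediate-early genes are described again beside the earlier arrays, where their difference had the opposite sign.

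Of 14 FGF ligands and receptors, Fgf5 and Fgf15, an endocrine FGF, rose and Fgf17 fell, against 6.99% and 7.45% of all genes. Fgf15 read 9.23 and 9.09 against 5.60 and 5.12 (log2 difference 3.80, SE 0.32, adjusted p = 3.38e-08). Fgf8, a ligand of the gastrulating embryo, was dim on each of the 4 arrays, at 3.15 and 2.96 in EpiLCs and 3.78 and 2.99 in ESCs. In the NODAL and activin pathway 0 were higher by limma. At an unadjusted p under 0.05, 2 were higher, 1 of them also at an adjusted p under 0.05 but under 2-fold. Of the 16 genes 2 were lower, against 7.45% of all genes. One of the 2, the activin antagonist gene Fst, lost its call without EpiLC replicate 1, EpiLC replicate 2 or ESC replicate 1 (adjusted p 0.0707, 0.134 and 0.22). Lefty2, an inhibitor of NODAL, read 8.73 and 7.90 against 11.23 and 11.12 and fell (log2 difference -2.86, SE 0.29, adjusted p = 3.25e-07), while Lefty1, a related inhibitor, read 11.86 and 11.24 against 10.89 and 10.78, a difference of 0.71 (SE 0.26) under 2-fold. Nodal read 7.28 and 8.39 against 9.47 and 9.73 and did not pass (log2 difference -1.77, SE 1.02, adjusted p = 0.242). In the BMP pathway 1 of 15 rose and 2 fell, counts that ran from 0 to 2 and from 1 to 3 when one array was left out: the receptor gene Bmpr2 lost its call without EpiLC replicate 1 or ESC replicate 2 (adjusted p 0.131 and 0.0606), and Smad9 without EpiLC replicate 2 (adjusted p 0.185). Id4, a dominant-negative helix-loop-helix gene, fell by 4.53 (SE 0.41), whereas Id1 (-0.61, SE 0.19) and Id3 (-0.11, SE 0.36) did not reach 2-fold. The counts of the BMP pathway stand beside 6.99% risen and 7.45% fallen among all genes.

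Early germ cell genes were lower in EpiLCs: 10 of 12 fell, against 7.45% of all genes, and the median was -2.97. By limma 0 rose (1 higher at an unadjusted p under 0.05). Prdm14, Dppa3 and Tcl1 also stand in the naive list. Prdm14, a repressor of DNA methyltransferase genes in ESCs and of the somatic programme in germ cells, read 2.90 and 3.06 in EpiLCs against 9.99 and 10.08 in ESCs (log2 difference -7.06, SE 0.25, adjusted p = 5.54e-13). Tfap2c, an AP-2 transcription factor, read 4.82 and 5.29 against 10.34 and 10.39 (log2 difference -5.31, SE 0.29, adjusted p = 1.16e-10). Prdm1, which encodes Blimp1, read 3.78 and 4.64 against 7.98 and 8.01 (log2 difference -3.78, SE 0.33, adjusted p = 3.99e-08). These are the genes whose transgenes the ESC clone carries. In earlier ESCs without such transgenes Prdm14 read 9.67 and 9.79, Tfap2c 9.98 and 10.00 and Prdm1 7.80 and 8.21, each within 0.5 of the BP14A ESC arrays, and which part of each transcript the probe sets read was not examined.

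Leaving these 3 genes out, 7 of 9 early germ cell genes fell, against 7.45% of all genes. Dppa3, which encodes stella and whose promoter drives the ECFP reporter of these cells, read 8.41 and 8.21 in EpiLCs against 11.33 and 11.43 in ESCs (log2 difference -3.08, SE 0.25, adjusted p = 1.89e-08). Kit, the receptor for stem cell factor, read 6.67 and 6.48 against 11.05 and 11.34 (log2 difference -4.62, SE 0.26, adjusted p = 1.16e-10). The interferon-induced membrane protein genes Ifitm1 and Ifitm3 fell by 2.86 and 1.87. EpiLCs still read above 8 for Dppa3 and above 9 for Ifitm1, so neither gene was dim there.

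Of 21 later germ cell and meiosis genes 8 rose, against 6.99% of all genes, with a median of 0.90. By limma 0 fell, and 1 was lower at an adjusted p under 0.05 but under 2-fold. Mael, a piRNA pathway protein of the male germ line, read 9.46 and 9.29 in EpiLCs against 5.68 and 5.78 in ESCs (log2 difference 3.65, SE 0.34, adjusted p = 1.01e-07). Tdrkh, a tudor protein of the same pathway, read 5.64 and 5.63 against 1.93 and 1.99 (log2 difference 3.67, SE 0.30, adjusted p = 1.56e-08), dim in ESCs. Sycp3, a part of the meiotic chromosome axis, read 8.50 and 8.14 against 5.25 and 6.14 (log2 difference 2.63, SE 0.43, adjusted p = 0.000113). Slc25a31, an ADP/ATP carrier of the testis, rose by 2.40 (SE 0.35), Sycp1 by 1.70 (SE 0.30), the PIWI gene Piwil2 by 1.56 (SE 0.33) and the RNA helicase gene Ddx4 by 1.37 (SE 0.21). Meioc rose by 1.0 and fell under 2-fold with the values as deposited (0.94), median centring (0.93) or without EpiLC replicate 1 (0.83) or ESC replicate 1 (0.98). Dazl, an RNA-binding protein needed by germ cells, read 7.47 and 7.27 against 7.05 and 6.84 and did not pass (log2 difference 0.42, SE 0.55, adjusted p = 0.655). Of 12 genes for PRC1.6 and other repressors of germline genes, 0 were called by limma, and 2 were higher and 2 lower at an unadjusted p under 0.05. At an adjusted p under 0.05 but under 2-fold, 1 was higher and 2 were lower.

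Promoters of germline genes are known for the E-box CACGTG, bound by MGA, MAX and L3MBTL2 complexes, and for TCCCGC, bound by E2F6. Promoters of 5 genes that rose and hold CACGTG are shown, each 250 bases before the start from RefSeq (GRCm38.p6), 5′ to 3′ along the gene, with CACGTG and TCCCGC (or its reverse complement GCGGGA) in capitals. Mael lies at chr1:166238745-166238994 (minus strand), Sycp3 at chr10:88459337-88459586 (plus strand), Ddx4 at chr13:112652311-112652560 (minus strand), Sycp1 at chr3:102936101-102936350 (minus strand) and Slc25a31 at chr3:40708621-40708870 (plus strand).
Mael promoter: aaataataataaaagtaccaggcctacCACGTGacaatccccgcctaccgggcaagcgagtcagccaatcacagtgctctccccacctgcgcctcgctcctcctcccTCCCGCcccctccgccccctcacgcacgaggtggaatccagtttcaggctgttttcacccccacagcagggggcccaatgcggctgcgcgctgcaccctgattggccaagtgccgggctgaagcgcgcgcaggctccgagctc
Sycp3 promoter: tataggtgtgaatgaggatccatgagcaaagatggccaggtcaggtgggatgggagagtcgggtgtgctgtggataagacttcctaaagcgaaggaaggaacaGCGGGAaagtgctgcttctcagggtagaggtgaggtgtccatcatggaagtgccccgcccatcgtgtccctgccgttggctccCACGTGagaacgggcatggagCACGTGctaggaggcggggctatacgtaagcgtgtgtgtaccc
Ddx4 promoter: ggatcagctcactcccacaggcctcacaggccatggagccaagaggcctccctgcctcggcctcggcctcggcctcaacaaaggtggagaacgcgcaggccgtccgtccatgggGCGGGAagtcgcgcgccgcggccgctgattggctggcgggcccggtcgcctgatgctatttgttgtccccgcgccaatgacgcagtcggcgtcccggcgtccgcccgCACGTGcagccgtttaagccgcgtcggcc
Sycp1 promoter: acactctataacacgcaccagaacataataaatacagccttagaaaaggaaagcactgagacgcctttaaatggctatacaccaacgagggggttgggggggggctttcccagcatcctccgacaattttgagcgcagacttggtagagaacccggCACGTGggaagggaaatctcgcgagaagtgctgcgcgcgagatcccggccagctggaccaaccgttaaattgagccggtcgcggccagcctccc
Slc25a31 promoter: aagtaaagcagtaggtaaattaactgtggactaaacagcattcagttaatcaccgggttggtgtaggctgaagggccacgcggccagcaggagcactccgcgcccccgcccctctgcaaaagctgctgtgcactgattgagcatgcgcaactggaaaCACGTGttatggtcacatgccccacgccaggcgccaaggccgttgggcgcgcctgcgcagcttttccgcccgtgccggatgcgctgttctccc
The E-box begins at -223 in Mael, at -64 and -43 in Sycp3, at -29 in Ddx4, at -94 in Sycp1 and at -93 in Slc25a31. TCCCGC on either strand is present once in the promoters of Mael, Sycp3 and Ddx4 and in neither of the other two. Among the 24 listed genes with a promoter in the table, 10 held CACGTG and 8 held TCCCGC. Of the 7 that rose and had a promoter, 5 held CACGTG, and of the 12 that were tested and not called, 4 did. Over all 32851 promoters 6.02% held CACGTG and 16.9% held TCCCGC, and of the 11892 tested genes with a promoter, 9.4% and 30.9% did. These promoters were chosen for their genes' rise and their motif, so the shares are a description.

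Genes for making and taking up cholesterol were higher in EpiLCs in 8 of 17 autosomal cases, against 6.99% of all genes, with 0 lower by limma (also 0 at an unadjusted p under 0.05) and a median of 1.05. Of the 2 X-linked genes on the list, Ebp, which encodes a sterol isomerase of the same pathway, was lower, at 7.78 and 7.85 in EpiLCs against 10.07 and 10.19 in ESCs (log2 difference -2.32, SE 0.19, adjusted p = 9.66e-09), and Nsdhl stayed under 2-fold at 0.92. Hsd17b7, of the sterol branch, read 7.57 and 7.03 in EpiLCs against 5.08 and 5.51 in ESCs (log2 difference 2.0, SE 0.21, adjusted p = 4.37e-07). Lss, which closes the sterol ring as lanosterol synthase, read 10.13 and 10.07 against 8.18 and 8.36 (log2 difference 1.84, SE 0.14, adjusted p = 5.5e-09). Mvd, of the mevalonate branch, rose by 1.46 (SE 0.18), the carrier gene Stard4 by 1.51 (SE 0.22) and Sc5d by 1.54 (SE 0.22), though Sc5d stayed under 2-fold with the mean of its probe sets (0.98). On each of these autosomal genes both EpiLC arrays were above both ESC arrays. Autosomal fatty acid genes had 0 higher by limma (3 at an adjusted p under 0.05 but under 2-fold). Of the 15 tested 2 were lower, against 7.45% of all genes. The X-linked Acsl4, which activates long-chain fatty acids, was higher, at 10.01 and 10.22 against 8.13 and 7.95 (log2 difference 2.07, SE 0.28, adjusted p = 1.21e-05). Of the genes that fell Srebf1, a regulator of lipid synthesis, fell by 1.20 (SE 0.18). Cpt1a, for fatty acid import into mitochondria, fell by 2.92 on its brightest probe set. That call was lost without EpiLC replicate 1 (-2.28) or ESC replicate 2 (-2.31). The other probe sets of Cpt1a differed by -4.10 (SE 0.43) and -3.67 (SE 0.35).

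Glycolysis genes split, with 2 of 19 higher and 3 lower. Among all genes tested 6.99% rose and 7.45% fell, the shares to set beside each count in this paragraph. Slc16a3, the lactate exporter MCT4, read 10.79 and 11.18 in EpiLCs against 6.28 and 5.45 in ESCs (log2 difference 5.12, SE 0.49, adjusted p = 1.75e-07). The muscle enolase gene Eno3 rose by 1.89 (SE 0.26), and the hexokinase gene Hk1 fell by 2.43 (SE 0.31). The glucose transporter gene Slc2a3 and the phosphofructokinase gene Pfkp fell by 2.46 and 2.41, but with the mean of their probe sets by 0.86 and 0.63, under 2-fold. A single probe set of each went the other way, higher by 2.89 (SE 0.96) for Slc2a3 and 1.05 (SE 0.45) for Pfkp. All other probe sets of both genes were lower. Hk2 (-0.82, SE 0.26) and Ldha (0.76, SE 0.33) did not reach 2-fold. Of 24 genes for oxidative phosphorylation, Cox7a1 alone was called, lower, and lost that call without any single one of the 4 arrays (adjusted p from 0.0867 to 0.155); the median of the list was -0.21. Of 10 genes for serine, glycine and threonine metabolism, 0 were called by limma. At an adjusted p under 0.05 but under 2-fold, 2 were higher and 1 lower. Of 17 genes for amino acid stress and unfolded proteins 2 rose and 1 fell, and these counts ran from 1 to 3 and from 0 to 1 when one array was left out: Herpud1 was lost without EpiLC replicate 1 (0.94) or ESC replicate 2 (adjusted p = 0.0522), and the fall of Asns was under 2-fold without EpiLC replicate 2 (-0.92).

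Of 22 adhesion genes 5 rose and 3 fell, against 6.99% and 7.45% of all genes. Cdh1, which encodes E-cadherin, read 12.47 and 12.49 in EpiLCs and 12.39 and 12.48 in ESCs, with overlapping arrays (log2 difference 0.04, SE 0.14, adjusted p = 0.886). Pcdh1, a protocadherin gene, rose by 5.48 (SE 0.33), the splicing regulator gene Esrp1 by 2.74 (SE 0.25), the claudin gene Cldn7 by 2.05 (SE 0.13) and Epcam by 1.96 (SE 0.20). Vim, an intermediate filament gene used as a mesenchymal marker, read 9.90 and 10.12 against 12.31 and 12.27 and fell (log2 difference -2.28, SE 0.29, adjusted p = 4.8e-06), as did Fn1, for fibronectin, by 2.62 (SE 0.43) and Icam1 by 2.08 (SE 0.26).

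Of 17 genes for G1 cyclins and Cdk inhibitors 2 rose and 1 fell, and of 12 p53 targets 1 rose and 1 fell. Each count in this paragraph stands beside 6.99% risen and 7.45% fallen among all genes. Cdkn1a, the p21 inhibitor, read 8.49 and 9.45 in EpiLCs against 11.34 and 11.23 in ESCs and fell (log2 difference -2.31, SE 0.51, adjusted p = 0.00187). Ccne1, for cyclin E1, rose from 10.29 and 10.38 to 12.07 and 11.92 (log2 difference 1.66, SE 0.15, adjusted p = 8.4e-08), and Pmaip1, which encodes the pro-apoptotic protein NOXA, by 3.01 (SE 0.37). Of 17 imprinted genes 8 rose and 1 fell, and the 8 were 5 without ESC replicate 2. Mest, an imprinted hydrolase gene, read 11.02 and 11.08 against 8.26 and 8.42 (log2 difference 2.71, SE 0.32, adjusted p = 2.41e-06). Plagl1, an imprinted zinc finger gene, went down, from 11.89 and 11.60 to 6.63 and 6.21 (log2 difference -5.32, SE 0.37, adjusted p = 1.98e-09). The expression of an imprinted gene on these arrays does not tell its alleles apart. In the retinoic acid list 3 of 14 rose, among them Crabp2, which carries retinoic acid to the nucleus, by 3.69 (SE 0.47), and Aldh1a2, which makes it, fell by 2.09 (SE 0.36).

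The labelled cell types were checked on their markers: the naive genes were high in the ESCs and the epiblast genes in the EpiLCs, as given above. Marker counts that follow stand beside 6.99% risen and 7.45% fallen among all genes. Of 14 primitive streak and mesoderm markers 0 rose by limma (1 higher at an unadjusted p under 0.05) and 3 fell (5 without EpiLC replicate 2), among them Gsc, from 7.36 and 7.38 to 2.57 and 2.81 (log2 difference -4.68, SE 0.65, adjusted p = 1.61e-05). Of 15 endoderm markers 1 rose and 2 fell, the latter being 1 without EpiLC replicate 2 or ESC replicate 1, when Sox7 was lost. Of 10 trophoblast markers 2 rose and 1 fell. Of 9 neural markers 0 were called by limma, and 0 had an unadjusted p under 0.05. Of 3 genes of the 2-cell-like state 0 were called by limma, and 1 was lower at an unadjusted p under 0.05. The trophoblast marker that rose most was the keratin gene Krt18 at 4.20 (SE 0.24), and Hand1, the other one, was lost without any single one of the 4 arrays (adjusted p from 0.0771 to 0.218). Cdx2, which defines that lineage, was dim in EpiLCs, at 0.69 and 1.45. In ESCs it read 4.13 and 2.17, dim on replicate 2 too, and it was not called (adjusted p = 0.0619).

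Of 10 feeder fibroblast markers, Dcn, Thy1 and Lum rose, against 6.99% of all genes. The mean level of the list was 4.88 and 4.67 on the EpiLC arrays against 3.54 and 3.72 on the ESC arrays. Its median difference was only 0.35, and by group mean 5 of the 10 genes were dim in both groups. Dcn, which encodes decorin, read 8.98 and 9.06 against 2.09 and 3.17 (log2 difference 6.39, SE 0.49, adjusted p = 8.32e-09), and Thy1 8.0 and 7.69 against 4.62 and 3.77 (log2 difference 3.65, SE 0.31, adjusted p = 2.85e-08). The collagen gene Col1a1 was dim on each of the 4 arrays, at 2.97 and 3.09 in EpiLCs and 3.90 and 3.01 in ESCs, and so was Postn, at 2.61 and 3.17 in EpiLCs and 3.69 and 3.74 in ESCs. Lum read 5.10 and 5.16 against 3.04 and 4.50 and lost its call without any of EpiLC replicate 1, EpiLC replicate 2 and ESC replicate 1 (adjusted p from 0.089 to 0.406). Dcn was likewise higher in the earlier 48 h EpiLCs (6.88 and 7.93) than in earlier ESCs (1.41 and 1.67) and read 6.78 and 6.68 in the epiblast. The part of other cells in these differences was not tested.

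**Figure D3:**
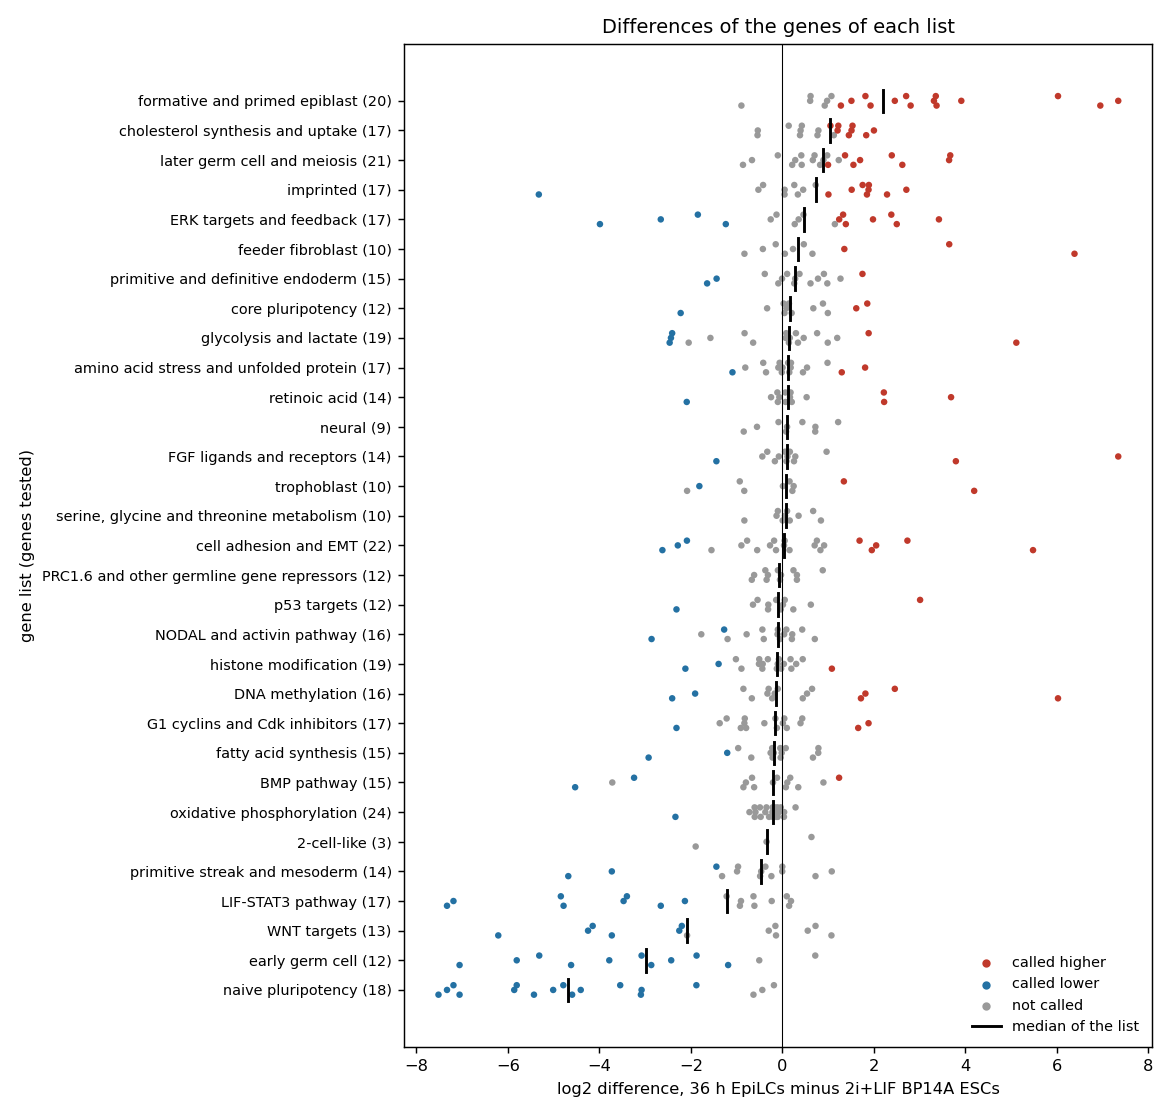
Log2 difference, 36 h EpiLCs minus 2i+LIF BP14A ESCs (horizontal axis), of each tested gene of 31 lists (vertical axis, number of genes in brackets), in order of the list's median (black bar); red genes were called higher, blue lower, grey neither. The naive pluripotency list lies lowest, with a median of -4.69, and the formative and primed epiblast list highest, with 2.20.

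The same step was measured on the earlier arrays, in C57BL/6 male cells with the Blimp1-mVenus and stella-ECFP reporters, as EpiLCs after 48 h minus ESCs in 2i+LIF, with 2 arrays each. None of these arrays is shared with the 36 h comparison. Series, strain background, clone and the 12 h of additional time differ together between the comparisons and cannot be told apart. Of the same 14878 genes, 1069 were higher after 48 h (7.19%) and 1056 lower (7.1%). Called in both, in the same direction, were 1363 genes, 661 higher and 702 lower, which is 63.4% of the 36 h calls and 64.1% of the 48 h calls. Only 7 genes were called in both in opposite directions. Across genes the differences correlated at Pearson r = 0.773 and Spearman rho = 0.616, a description over genes, which are not independent replicates. Of the 779 genes called at 36 h alone, 684 (87.8%) had the same sign at 48 h.

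Several of the genes with the largest 36 h differences are set beside their 48 h values here. Fgf5 differed by 7.35 at 36 h and 7.32 at 48 h, Pou3f1 by 6.95 and 6.86, and Car4 by 9.14 and 8.87. Jam2 fell by 7.52 and by 8.01, and Prdm14 by 7.06 and by 6.82. The list counts that follow stand beside 6.99% risen and 7.45% fallen among all genes at 36 h. At 48 h these shares were 7.19% and 7.1%, and the test of the difference called 0.907%. Of 18 naive genes 15 fell in each, and of 20 epiblast genes 14 rose in each. Of 17 ERK targets 7 rose in each and 4 fell at 36 h, and 4 were called in the test of the difference described next. Cholesterol genes rose in 8 of 17 cases at 36 h and in 3 of 17 at 48 h, with medians of 1.05 and 0.33, a difference between lists that was not tested.

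**Figure D4:**
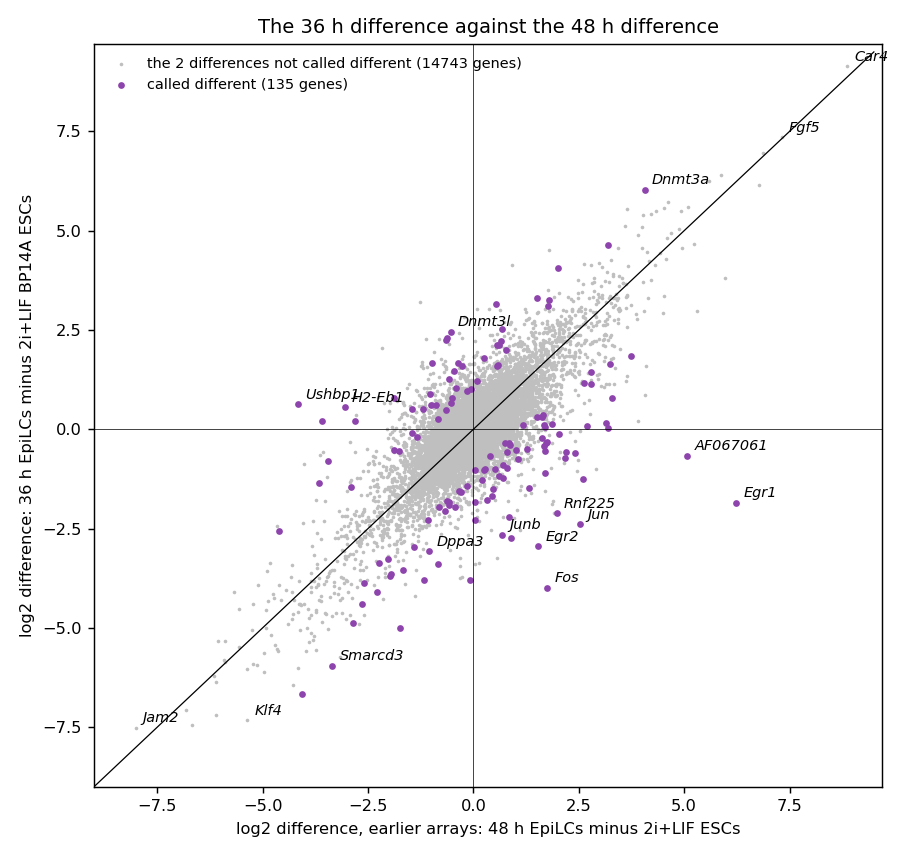
Log2 difference of 48 h EpiLCs minus 2i+LIF ESCs on the earlier arrays (horizontal axis) against that of 36 h EpiLCs minus BP14A ESCs (vertical axis) for 14878 genes; purple genes (135) were called different between the comparisons, and the diagonal marks equal differences. Car4, Fgf5 and Jam2 lie near the diagonal, while Egr1, Jun, Fos, Egr2, Junb and Rnf225 lie to the right of zero on the horizontal axis and below zero on the vertical one.

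The difference between the comparisons was itself tested as an interaction term, the 36 h difference minus the 48 h difference. It was called in 135 genes (0.907%), 49 of them more positive at 36 h (0.329%) and 86 more negative (0.578%). These counts depended on single arrays. The number more positive was 15 without 36 h EpiLC replicate 1, 29 without replicate 2, 28 and 32 without BP14A ESC replicates 1 and 2, 21 without earlier ESC replicate 2 and 115 without 48 h EpiLC replicate 2. The number more negative was 44 and 41 without 36 h EpiLC replicates 1 and 2, 31 and 35 without BP14A ESC replicates 1 and 2, and 45 and 46 without earlier ESC replicates 1 and 2. In a fit on the 8 arrays alone the numbers were 2 and 3.

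Immediate-early genes were among those more negative at 36 h. Egr1 fell by 1.85 at 36 h and was higher by 6.24 at 48 h (difference of differences -8.08, SE 0.41, adjusted p = 9e-10). The earlier ESCs read 4.12 and 3.72 for it, dim or nearly so, where BP14A ESCs read 12.24 and 12.49, and the EpiLC groups read 10.65 and 10.39 at 36 h and 10.26 and 10.06 at 48 h. The difference between the comparisons thus lay in the ESCs, whose 4 arrays formed 2 separate pairs, while the 4 EpiLC arrays were within 0.6 of each other. Egr1 was called in each of the 19 other settings. BP14A ESCs given doxycycline and sorted for stella-ECFP read 7.38 and 7.87, between both untreated ESC groups, and the epiblast 5.15 and 4.98.

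Jun had the same pattern, at 8.19 and 8.53 in BP14A ESCs and 4.16 and 3.95 in earlier ESCs against 5.36 and 6.59 in 36 h EpiLCs and 6.84 and 6.35 in 48 h EpiLCs (difference of differences -4.92, SE 0.61, adjusted p = 0.000301). For Fos the ESC groups read 11.15 and 11.09 and 5.34 and 5.85 (difference of differences -5.74, SE 1.31, adjusted p = 0.0441), for Junb 8.91 and 9.34 and 7.29 and 7.15 (difference of differences -3.35, SE 0.50, adjusted p = 0.00248) and for Egr2 7.36 and 7.89 and 3.91 and 2.76 (difference of differences -4.48, SE 0.61, adjusted p = 0.00102). Fos was called in 9 of 19 other settings, Jun, Junb and Egr2 in 18 each. Among the 8 arrays of the 4 groups, the call for Fos was lost without each except 36 h EpiLC replicate 1, with adjusted p from 0.0727 to 0.155. For all 5 immediate-early genes both BP14A ESC arrays were above both earlier ESC arrays. Spry2 was called too (difference of differences -1.94, SE 0.45, adjusted p = 0.0449) but in 6 of 19 other settings, and not without any single one of the 8 arrays (adjusted p from 0.0744 to 0.153).

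De novo methyltransferase and germ cell genes differed between the comparisons as well. Dnmt3l rose by 2.46 at 36 h and differed by -0.54 at 48 h (difference of differences 3.0, SE 0.37, adjusted p = 0.000272). Earlier ESCs already read 11.29 and 10.93 for it, where BP14A ESCs read 8.90 and 8.49. Dnmt3a rose by 6.03 and by 4.07 (difference of differences 1.96, SE 0.39, adjusted p = 0.0171), with 7.49 and 7.53 in earlier ESCs against 6.22 and 5.35, and was called in 10 of 19 other settings. The call for Dnmt3a was lost without either 36 h EpiLC array, BP14A ESC replicate 2, 48 h EpiLC replicate 1 or either earlier ESC array, with adjusted p from 0.0517 to 0.0968. Dppa3 fell by 3.08 at 36 h and by 1.05 at 48 h (difference of differences -2.02, SE 0.36, adjusted p = 0.00802), from 11.33 and 11.43 in BP14A ESCs and 10.37 and 10.11 in earlier ESCs. Both BP14A ESC arrays were below both earlier ESC arrays for Dnmt3a and Dnmt3l and above them for Dppa3.

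Further genes called in this test are given here. Apart from Rnf225, they were called at 48 h and not at 36 h, though only the test of the difference compares them. Ushbp1 read 4.48 and 4.18 in EpiLCs against 3.65 and 3.74 in ESCs in the 36 h comparison, and 3.87 and 3.27 against 7.79 and 7.68 in the 48 h one (difference of differences 4.80, SE 0.45, adjusted p = 1.1e-05). AI662270 stood at 10.38 and 10.48 in 36 h EpiLCs and 10.14 and 10.29 in BP14A ESCs, bright in both new groups, and at 3.16 and 4.77 against 7.43 and 7.68 on the earlier arrays (difference of differences 3.81, SE 0.61, adjusted p = 0.00408). The MHC class II gene H2-Eb1 (3.61) and the homeobox gene Crxos (3.02) were higher in earlier ESCs than on the other 6 arrays. AF067061 read 6.12 and 4.26 in 48 h EpiLCs and was dim elsewhere in these groups (-5.74). The ring finger gene Rnf225 fell by 2.11 at 36 h and differed by 1.98 at 48 h (-4.08). With the mean of its probe sets the value for Rnf225 was -1.99 and not called (adjusted p = 0.207), and in a fit on the 8 arrays alone its adjusted p was 0.0544. That fit also ended the calls for AI662270 (0.152), H2-Eb1 (0.0555) and AF067061 (0.195), but not those for Ushbp1 and Crxos.

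**Figure D5:**
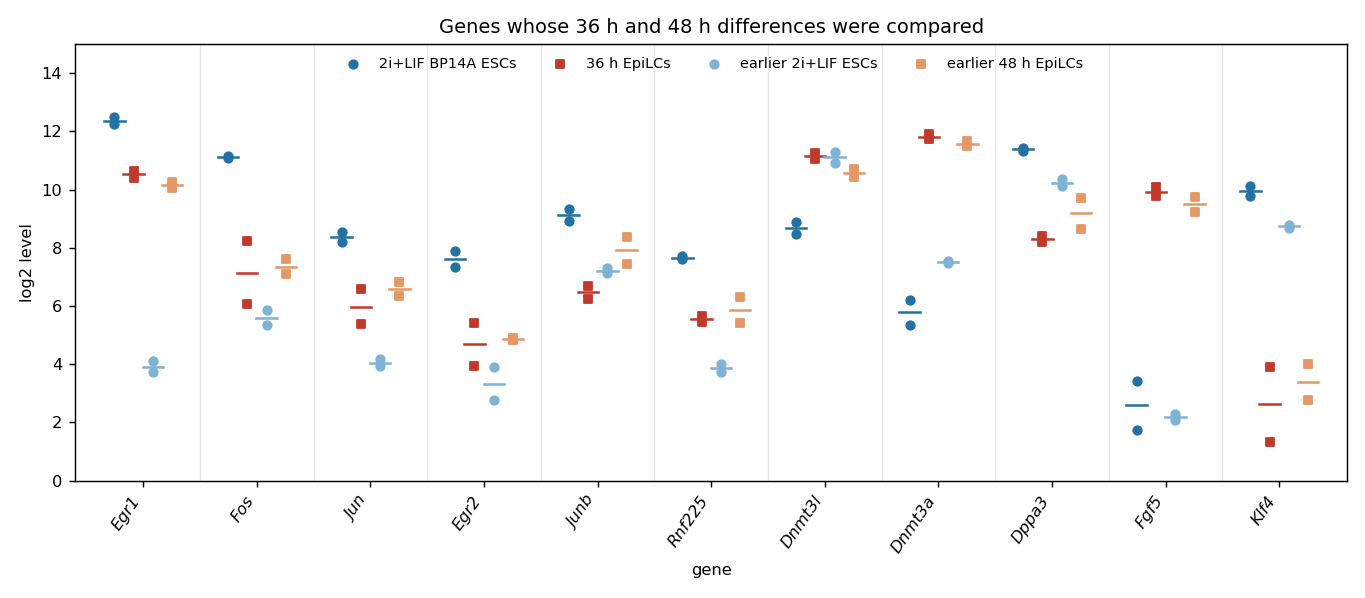
Log2 level (vertical axis) of 11 genes on the 2 arrays of each of 4 groups: BP14A ESCs (dark blue), 36 h EpiLCs (red), earlier ESCs (light blue) and earlier 48 h EpiLCs (orange), with bars at the group means. For Egr1, Fos, Jun, Egr2, Junb and Rnf225 the BP14A ESC arrays are the highest and the earlier ESC arrays the lowest, except that for Junb the 36 h EpiLC arrays are lower still; Fgf5 and Klf4 separate ESCs from EpiLCs in both pairs.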

How the data were processed

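Values on the log2 scale, deposited in the series' value table for 45101 probe sets and 32 Affymetrix arrays, were read as given, with probe sets named through the platform annotation. How the authors computed them, the scanner software included, is not given in the sources used here. Per the labels' protocols, the cDNA of about 20000 cells was amplified by a global PCR and hybridised as biotin-labelled cRNA. The arrays' number limits the precision. The lowest values are listed at exactly 0, on 657 to 843 probe sets per array.

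Here the arrays were quantile-normalised. Each gene was read from its brightest probe set over all arrays, 18032 genes were matched to RefSeq (GRCm38.p6), and of 17404 autosomal genes the 14878 with at least 1 group mean at or above the 40th percentile (log2 4.05) were tested. A model of the 16 group means was fitted to all 32 arrays with limma 3.58.1 in R 4.3.3 (empirical Bayes, Benjamini-Hochberg adjustment over all genes tested), which gave 16 residual degrees of freedom. The 36 h difference, the 48 h difference and their difference were contrasts of that model. The scripts were tested on simulated data. Figures were drawn with matplotlib 3.10.9.

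The comparison, the 31 gene lists (511 genes, 446 tested) and the rule for named genes were chosen with earlier results of these data known. The rule took the 15 largest non-overlapping rises and falls, up to 3 called genes a list and direction, a fixed set, the 6 largest interaction calls of each sign and the 6 largest t of each sign. The ranking of rises and falls passed over genes with only a provisional name, such as Gm9564, which was named by its t. Other genes were named after their values were seen: Kit, Ifitm1, Ifitm3, Stat3, Lifr, Il6st, Ddx4, Sycp1, Slc25a31, Piwil2, Meioc, Epcam, Spry2, Bmp4, Grb10, Mvd, Stard4, Sall2, Sox4, Grhl2, Uhrf1, Dnmt1, Cdx2, Col1a1, Postn, Dppa5a, Gbx2, Dkk1, Tnfrsf19 and the X-linked and Y-linked genes, which were fitted and adjusted apart from the autosomal ones. Promoters were RefSeq windows of 250 bases upstream, searched on both strands. Alternatives covered normalization, filter, probe set choice, call rule, arrays in the fit, a replicate block and each array left out.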

Additional observations from a re-analysis of the deposited data

Results flagged for a closer look

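The 36 h and 48 h comparisons differed, by the interaction term, in 135 genes (0.907% of those tested). Values here are the 36 h difference minus the 48 h difference on the log2 scale, and all pass the adjusted p. Among immediate-early genes they were -8.08 for Egr1, -5.74 for Fos, -4.92 for Jun, -4.48 for Egr2 and -3.35 for Junb, with -1.94 for the feedback gene Spry2. Among genes of methylation and the germ line they were 3.0 for Dnmt3l, 1.96 for Dnmt3a and -2.02 for Dppa3. The others named were Ushbp1 at 4.80, AI662270 at 3.81, H2-Eb1 at 3.61, Crxos at 3.02, Fxyd5 at 2.92, Bmp4 at 1.94, AF067061 at -5.74, Rnf225 at -4.08, Smarcd3 at -2.61 and Grb10 at -1.89. Bmp4, a BMP ligand, read 6.95 and 6.58 in 36 h EpiLCs and 6.11 and 5.63 in BP14A ESCs, and 5.08 and 5.53 in 48 h EpiLCs and 6.09 and 6.60 in earlier ESCs. Fxyd5 was called in 10 of 19 other settings, Smarcd3 and Grb10 in 10 each and Bmp4 in 13. Leaving out 1 of the 8 arrays ended the call for Fxyd5 and Smarcd3 in 7 cases each, for Grb10 in 6 and for Bmp4 in 4, with adjusted p from 0.0513 to 0.123.

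Sex-linked genes lie outside the comparison's autosomal rule. Fitted and adjusted apart from the autosomal genes, 63 of 514 X-linked genes tested were higher in EpiLCs (12.3%, against 6.99% of autosomal genes) and 36 lower (7.0%, against 7.45%). On the Y chromosome 3 of 8 were higher: Eif2s3y (log2 difference 4.28, SE 0.28, adjusted p = 4.08e-10), Kdm5d at 1.69 and Uba1y at 1.20. Kdm5d was dim in BP14A ESCs, at 3.81 and 3.43. Differences of the Y-linked genes not called ran from -1.225 (Zfy2) to 0.40 (Uty). Eif2s3y read 9.61 and 9.26 in EpiLCs and 5.48 and 4.83 in BP14A ESCs, and 7.37 and 7.03 in BP14A ESCs given doxycycline, 7.73 and 6.68 in day 2 cells of the same clone and 8.77 and 8.68 in parental cells given doxycycline. Uba1y had another order: 7.93 and 7.62 in EpiLCs, 6.59 and 6.55 in BP14A ESCs and 8.5 and 8.55 in those given doxycycline. In parental cells given doxycycline Uba1y read 4.92 and 5.42. All these groups are labelled male. The X-linked gene Xist differed by 0.31 and was not called.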

How the results depend on the processing

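In the 36 h comparison the counts of genes that rose and fell kept within 1.5 times their value, except with no fold limit, where 1889 were higher and 1756 lower. Calls summed over all lists kept within 1.5 times their number under every alternative, though those of single lists moved more. The highest chromosome median was 0.092 as reported, 0.035 as deposited, 0.025 with median centring and 0.147 without EpiLC replicate 2. The same held at 48 h, with 1850 and 1771 when no fold limit was set. Of 141 named genes called at 36 h, 113 were called under every alternative, and 0 changed sign. The values as deposited gave 946 higher and 1195 lower at 36 h, and median centring 929 and 1207. The median of all genes was 0.045 as reported, -0.015 as deposited and -0.025 with median centring. The counts for the difference between the comparisons moved more: 32 and 51 with no filter, 31 and 56 with the mean of all probe sets, 14 and 24 at an adjusted p under 0.01, and 2 and 3 in a fit on the 8 arrays alone. Leaving out each array in turn gave 15 to 115 more positive and 31 to 101 more negative. With median centring they were 36 and 94, so that 27.7% were more positive against 36.3% as reported. The causes were not tested. Crxos, not called at 36 h, went from 0.20 to -0.77 with the mean of its probe sets.

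Genes that were not called crossed 0 when an array was left out. Their ranges at 36 h were -1.44 to 0.12 for AF067061, -0.28 to 0.05 for Id3, -0.02 to 0.12 for Pou5f1, -0.01 to 0.08 for Cdh1, -0.72 to 0.07 for Fgf8 and -0.87 to 0.02 for Col1a1. At 48 h they were -0.13 to 0.02 for Pou5f1, -0.15 to 0.07 for Cdh1 and -2.68 to 0.68 for Nodal.

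Whether shared replicate numbers pair the arrays is not settled by 2 pairs: no label says so, the deviations of same-numbered arrays correlated at 0.177 at 36 h and 0.27 at 48 h, and the Gapdh 5′ to 3′ value was lower on replicate 1 of both 36 h groups. With the replicate number as a block, 1046 rose and 1113 fell at 36 h, 1086 and 1071 at 48 h, and 66 and 85 differed between the comparisons. Among named genes the block ended the 36 h calls for Dusp6 (adjusted p = 0.0553), Hand1 (0.0506) and Lin28b (0.0530) and the call for Spry2 between the comparisons (0.0555). With 2 arrays a group, the median SE of a difference was 0.269 on the log2 scale and its 90th percentile 0.54, and below 4.05 a level says little about a gene's order among dim genes.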

Other observations

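Several genes outside the lists had large differences between 36 h EpiLCs and BP14A ESCs. Slc40a1, the iron exporter ferroportin, had the largest moderated t of the genes that rose, with 9.29 and 9.02 in EpiLCs against 4.19 and 3.92 in ESCs (log2 difference 5.10, SE 0.19, adjusted p = 7.8e-13). Rspo1, a secreted enhancer of WNT signalling, rose from 3.05 and 3.24 to 8.56 and 8.58 (log2 difference 5.43, SE 0.42, adjusted p = 1.07e-08), while the WNT targets in the report fell or were not called. Gadd45g, a stress-response gene, rose by 5.58 and Cthrc1, a secreted matrix protein gene, by 5.73. Mitf, the melanocyte transcription factor, read 4.25 and 3.64 in EpiLCs against 10.04 and 9.73 in ESCs (log2 difference -5.94, SE 0.37, adjusted p = 5.29e-10). Smarcd3, a subunit of BAF chromatin remodelling complexes, fell from 10.21 and 10.25 to 4.23 and 4.33 (log2 difference -5.95, SE 0.37, adjusted p = 5.25e-10), and Apod, for apolipoprotein D, from 9.51 and 9.28 to 3.09 and 3.68 (log2 difference -6.01, SE 0.37, adjusted p = 4.42e-10).

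On the X chromosome, the kinase gene Pim2 read 12.60 and 12.71 in EpiLCs against 8.03 and 7.98 in ESCs (log2 difference 4.65, SE 0.24, adjusted p = 2.2e-11). The SOX factor gene Sox3 rose by 4.49, and Dusp9, an ERK phosphatase gene, by 4.13. Sox3 and Pim2 stand in the formative and primed epiblast list and were not counted there. Other X-linked list members called were Nr0b1 of the naive list (-2.25), Elk1 (-1.19) and Rhox9 (-1.86) of the early germ cell list, and Ebp and Acsl4, whose differences had signs absent from their lists' autosomal calls.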
